A study of Homo sapiens with 6 samples.

Results

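MYC and the proteins that share its partner MAX were followed at the RNA level in T47D cells, a luminal human breast cancer cell line. The 10 genes MYC, MAX, MXD1, MXD3, MXD4, MXI1, MNT, MLX, MLXIP and MGA were chosen by name from the 58735 genes of the deposited count table. All 10 were found there, and all passed the filter on low counts. The exposed group (coded CQ) and the control group (coded CK) had 3 libraries each, and no genotype or other agent is given for either. The study calls the CQ group only an experimental treatment. PM2.5, the fine fraction of airborne particles, is named in the series title, and a protocol text shared by all 6 libraries places RNA extraction 48 h into PM2.5 exposure, so the treatment is taken to be PM2.5. No dose is stated, and the libraries are described as biological replicates of this line with no statement on separate cultures.

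MYC is a basic helix-loop-helix leucine zipper transcription factor that binds DNA only as a dimer with MAX. These dimers sit on E-boxes, of which CACGTG is the canonical form, and raise the output of genes for growth, ribosome production and cell division. The MXD proteins, MXI1, MNT and MGA compete for MAX at the same sites and act mainly as repressors. A parallel branch uses MLX in place of MAX, where MLX pairs with the nutrient-sensing factors MondoA (gene MLXIP) and ChREBP (gene MLXIPL). In luminal breast cancer cells MYC is known as an early target of the estrogen receptor.

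MYC RNA fell to 22.6% of its control level, whereas the repressors MXD1, MXI1 and MNT and the alternative partner MLX rose. MXD4, a repressor associated with resting and differentiated cells, fell. Thus 4 of the 10 genes were higher and 2 were lower (edgeR quasi-likelihood test, Benjamini-Hochberg adjusted p under 0.05), and MAX, MXD3, MLXIP and MGA did not pass. Of all 17337 tested genes 43.9% passed, 21.8% higher and 22.1% lower and the 6 of 10 has to be read against that share. Values of the groups did not overlap for 7 of the 10, against 51.9% of all tested genes.

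Library totals ran from 30970218 to 36878525 counts in exposed cells and from 34696540 to 36024874 in controls. Of 9 luminal markers 6 fell (66.7%, against 22.1% of all tested genes) and 0.0% rose (against 21.8%). Among those that fell, ESR1, the estrogen receptor gene, was at 67.1 ± 3.45 CPM (reads scaled to library size, with SD, n = 3) in exposed cells and 167 ± 12.2 CPM in controls. PGR, the progesterone receptor gene, was at 299 ± 17.1 and 821 ± 90.8 CPM. KRT8 and KRT18, keratins of luminal epithelium, were at -1.30 and -1.06 on the log2 scale. GATA3, CDH1 and EPCAM did not pass, and stood at 629 ± 17.5, 370 ± 2.75 and 172 ± 1.54 CPM in exposed cells and at 613 ± 20.4, 350 ± 24.8 and 169 ± 11.6 CPM in controls. The 14 non-epithelial markers summed to 77.4 to 80.4 CPM in exposed libraries and 66.4 to 75.6 CPM in controls. Of these COL1A1, a collagen chain, made up 69.8 ± 1.43 and 61.6 ± 4.05 CPM. The 5 that could be tested, COL1A1, COL3A1, ACTA2, PDGFRB and CD14, did not pass. None of the 14 was at 0 in all libraries, although PTPRC, CD3E, CD68, MS4A1, PECAM1, VWF, CDH5 and ADIPOQ averaged below 0.3 CPM in either group. COL1A1 passed as higher without control replicate 2 (adjusted p = 0.014) and with DESeq2 (0.043), in a range over all alternatives of 0.014 to 0.27.

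MYC (ENSG00000136997, chromosome 8, 127735434 to 127741434, plus strand) had 380, 235 and 316 counts in exposed replicates 1 to 3, against 1518, 1309 and 1597 counts in control replicates 1 to 3. Scaled to library size this was 11.2, 7.59 and 8.76 CPM in exposed cells and 40.7, 37.7 and 43.8 CPM in controls. Every exposed library lay far below every control library. The log2 fold change was -2.15 ± 0.12 (SE), or 4.43-fold lower, with an adjusted p of 6.5e-16 in edgeR's quasi-likelihood test. Only 124 of 17337 tested genes had a more negative log2 fold change, and none of the 54 tested genes that the table classes as bHLH factors did. Of those 54, 17 rose and 12 fell, where 21.8% of all tested genes rose and 22.1% fell. The values are shares of each library, so fewer MYC transcripts per cell and a larger total of other RNA per cell cannot be told apart.

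Of the other MYC genes, MYCL rose and MYCN was too low to test. MYCL, a paralog first found in lung cancer, was at 24.7, 22.7 and 22.0 CPM in exposed cells and 12.1, 9.62 and 11.0 CPM in controls. It rose by 1.09 ± 0.11 on the log2 scale (SE, adjusted p = 1.7e-09), and the groups did not overlap. MYCN, the neuroblastoma paralog, was all but silent, with 0, 1 and 0 counts in exposed libraries and 4, 2 and 2 in controls, and was not tested. PVT1, the long non-coding RNA gene that lies next to MYC on chromosome 8, had 13.2 ± 0.987 CPM in exposed cells and 14.3 ± 0.920 CPM in controls (SD, n = 3 each). Its log2 fold change of -0.12 ± 0.11 (SE) did not pass (adjusted p = 0.40). CASC11, another non-coding gene beside MYC, had 4, 0 and 2 counts in exposed cells and 4, 0 and 6 counts in controls. CASC8, CASC19 and POU5F1B of the same region had a mean of at most 0.0179 CPM in either group, and CCAT1 and CASC21 matched no symbol of the table.

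**Figure D1:**
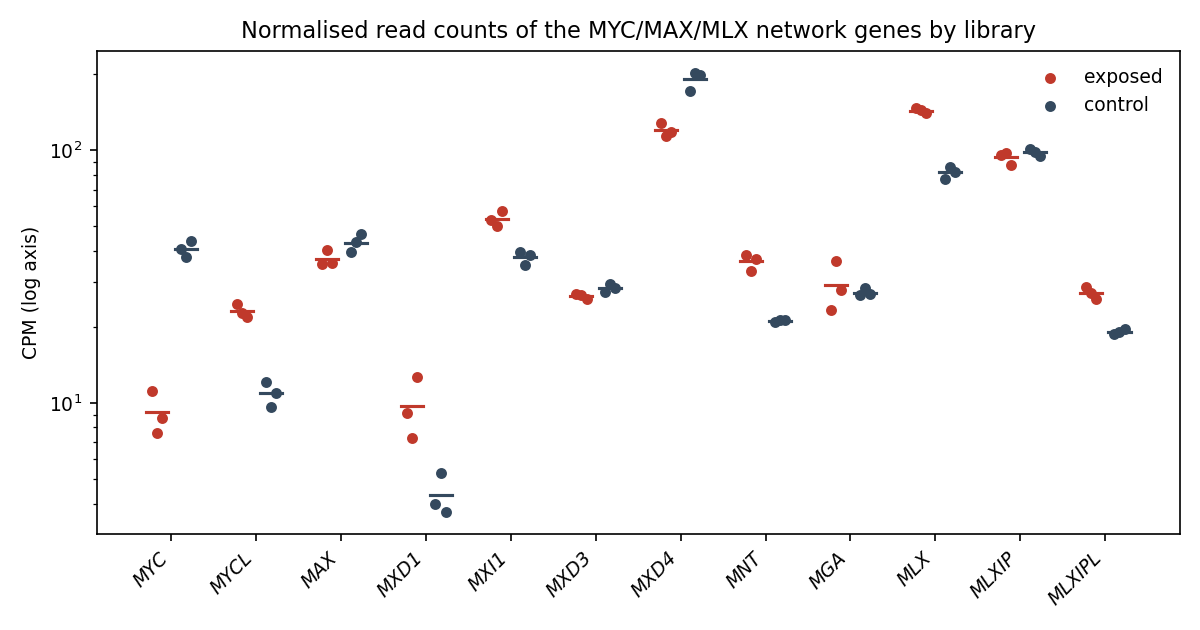
Normalised counts (CPM, log axis) of the 10 genes and of MYCL and MLXIPL in each library, exposed (red) left of control (dark), with 1 point per library and a bar at the group mean. MYC lies at 7.59 to 11.2 CPM in exposed cells and 37.7 to 43.8 CPM in controls, while MYCL, MXD1, MXI1, MNT, MLX and MLXIPL lie higher in every exposed library than in any control library.

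MAX, the obligate partner of MYC and a partner of the repressors, had 35.5, 40.4 and 35.9 CPM in exposed cells against 39.7, 43.3 and 46.5 CPM in controls. Exposed replicate 2 overlapped the control range. The log2 fold change was -0.21 ± 0.09 (SE), 95% interval -0.39 to -0.03, and did not pass after adjustment over all genes (adjusted p = 0.058). MAX passed as lower without exposed replicate 2 (adjusted p = 0.035) and without control replicate 1 (adjusted p = 0.033), the range over all alternatives being 0.033 to 0.26.

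Among the repressors MXD1 (ENSG00000059728, chromosome 2, 69897688 to 69942945, plus strand), which is known for its induction when cells leave the cycle and differentiate, showed the largest rise of the 10 genes. It had 9.13, 7.27 and 12.7 CPM in exposed cells and 3.99, 5.30 and 3.70 CPM in controls. The groups did not overlap, although the exposed values spread widely. The log2 fold change was 1.17 ± 0.18 (SE, adjusted p = 4.4e-06), or 2.25-fold higher. MXD1 shares 237 of its 6351 exon bases with SNRNP27 on the same strand. The counts of SNRNP27 were 325, 293 and 421 in exposed libraries and 277, 289 and 327 in controls. MXI1 (ENSG00000119950, chromosome 10, 110207605 to 110287365, plus strand), a repressor that recruits SIN3 corepressors, had 52.8, 50.3 and 57.8 CPM in exposed cells and 39.7, 35.3 and 38.7 CPM in controls. It rose 1.41-fold (log2 0.50 ± 0.09, SE, adjusted p = 1.9e-05), and again no exposed library fell within the control range.

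MNT, the broadly expressed repressor that opposes MYC in cycling as well as resting cells (ENSG00000070444, chromosome 17, 2384060 to 2401118, minus strand), had 38.7, 33.4 and 37.2 CPM in exposed cells. Its control libraries were close together at 21.0, 21.3 and 21.3 CPM. MNT thus rose 1.72-fold (log2 0.78 ± 0.09, SE, adjusted p = 3.7e-08). MXD4 (ENSG00000123933, chromosome 4, 2247432 to 2262294, minus strand) moved the other way, with 128, 114 and 118 CPM in exposed cells and 172, 203 and 199 CPM in controls. It fell by 0.67 ± 0.08 on the log2 scale (SE, adjusted p = 2.0e-08), and the groups did not overlap.

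MXD3, the MXD gene linked to S phase and proliferating precursors, had 27.1, 26.8 and 25.8 CPM in exposed cells and 27.6, 29.7 and 28.6 CPM in controls. The 2 ranges did not overlap, yet the log2 fold change of -0.11 ± 0.09 (SE) did not pass (adjusted p = 0.36), with a 95% interval of -0.30 to 0.08. MXD3 shares 1158 exon bases with PRELID1 on the opposite strand and 926 with RAB24 on its own strand, out of an exon length of 5154 bases. With the strand setting of the counting not given, reads over those bases cannot be assigned to MXD3 with certainty. MGA, a large protein that joins MAX to a variant Polycomb repressive complex and that the table classes as a T-box factor, had 23.3, 36.6 and 27.9 CPM in exposed cells and 26.7, 28.4 and 27.0 CPM in controls. Exposed replicates 1 and 2 lay on either side of the narrow control range and replicate 3 within it, and the log2 fold change of 0.09 (95% interval -0.15 to 0.33) did not pass (adjusted p = 0.54).

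In the MLX branch MLX and MLXIPL rose, and MLXIP did not pass. MLX (ENSG00000108788, chromosome 17, 42567068 to 42573239, plus strand) had 147, 144 and 140 CPM in exposed cells and 77.3, 85.7 and 82.3 CPM in controls. It rose 1.76-fold with little spread in either group (log2 0.81 ± 0.07, SE, adjusted p = 1.4e-10). Its exons share 770 of 4259 bases with PSMC3IP on the opposite strand, whose own counts were 385, 251 and 389 in exposed libraries and 278, 306 and 247 in controls. MLXIP, which encodes MondoA, had 96.3, 97.8 and 87.8 CPM in exposed cells and 101, 98.4 and 95.2 CPM in controls and did not pass (log2 -0.06, 95% interval -0.22 to 0.09, adjusted p = 0.53). MLXIPL, which encodes ChREBP, had 28.9, 27.3 and 25.9 CPM in exposed cells and 18.7, 19.1 and 19.6 CPM in controls. It rose by 0.52 ± 0.10 on the log2 scale (SE, adjusted p = 5.4e-05), with no overlap of the groups.

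**Figure D2:**
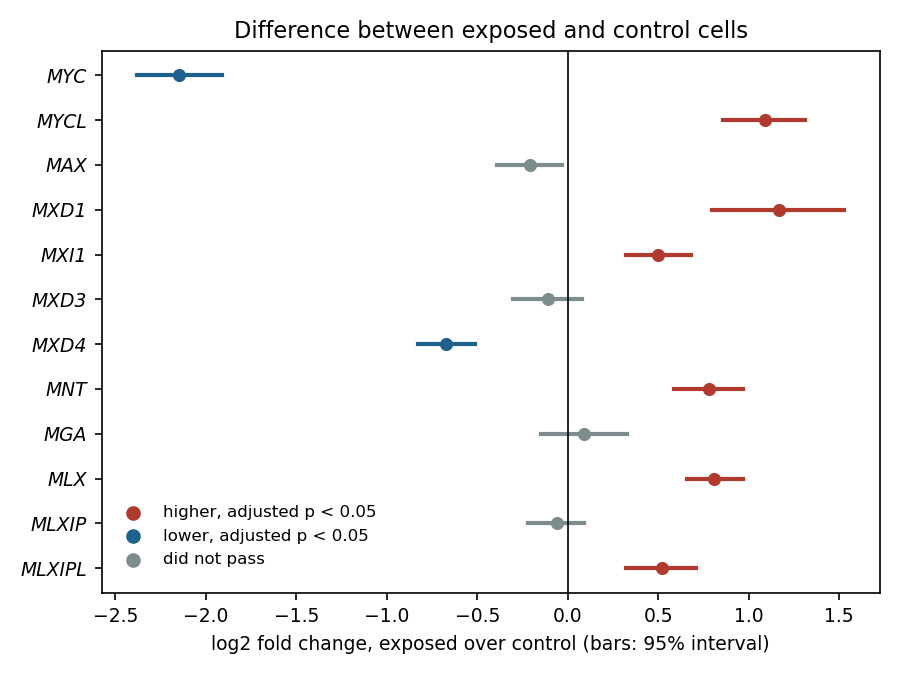
Log2 fold change of each gene, exposed over control, from edgeR's fit with its 95% interval (n = 3 per group), coloured by whether the gene passed an adjusted p under 0.05. MYC stands alone at -2.15, MXD4 lies at -0.67, and MXD1 and MYCL lie highest at 1.17 and 1.09.

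Levels of different genes were compared per exon length, as TPM, the share of a library's transcripts that a gene supplies once counts are divided by exon length. In exposed cells the order of the 10 genes was MLX at 98.4, MXD4 at 49.5, MXI1 at 33.9, MAX at 24.6, MLXIP at 19.7, MXD3 at 15, MNT at 12.1, MYC at 8.87, MGA at 4.87 and MXD1 at 4.45 TPM (mean level, n = 3). In controls it was MXD4 at 81.9, MLX at 58.0, MYC at 41.1, MAX at 29.5, MXI1 at 24.9, MLXIP at 21.3, MXD3 at 16.8, MNT at 7.34, MGA at 4.69 and MXD1 at 2.05 TPM. Of all neighbours in both orders, only MGA and MXD1 in exposed cells had overlapping ranges. MYC was therefore above MAX in every control library, 36.6 to 45 against 27.5 to 32.4 TPM, and below MAX in every exposed library, 7.71 to 10.4 against 22.3 to 27.8 TPM. MYCL, at 13.3 ± 0.540 TPM in exposed cells and 6.51 ± 0.905 TPM in controls, was above MYC in exposed cells and below it in controls.

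Exon length counts all annotated isoforms, so these levels are approximate. With the longest protein-coding transcript as length, MXD3 stood above MLXIP in both groups (with overlapping ranges in exposed cells) and above MXI1 in controls, while MYC kept its places relative to MAX and MYCL.

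The summed level of the 5 repressors MXD1, MXD3, MXD4, MXI1 and MNT was 115 ± 2.94 TPM in exposed cells and 133 ± 6.14 TPM in controls (SD, n = 3 each). Set against MYC, this gave 10.9, 14.7 and 13.9 repressor transcripts per MYC transcript in exposed libraries and 3.05, 3.62 and 3.09 in controls. The means were 13.2 ± 2.0 and 3.26 ± 0.316, a ratio of 4.05 that came with lower MYC and not with a higher sum of repressors. No test was made of this score. Within the sum the make-up also differed. MXD4 supplied 43.1% ± 1.70 of it in exposed cells and 61.5% ± 2.34 in controls, MXI1 29.4% ± 1.42 and 18.8% ± 2.0, MNT 10.6% ± 0.309 and 5.53% ± 0.25, and MXD1 3.85% ± 0.979 and 1.55% ± 0.273 (SD, n = 3 each). MYC and MYCL together reached 22.2 ± 1.51 TPM in exposed cells and 47.6 ± 4.94 TPM in controls.

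**Figure D3:**
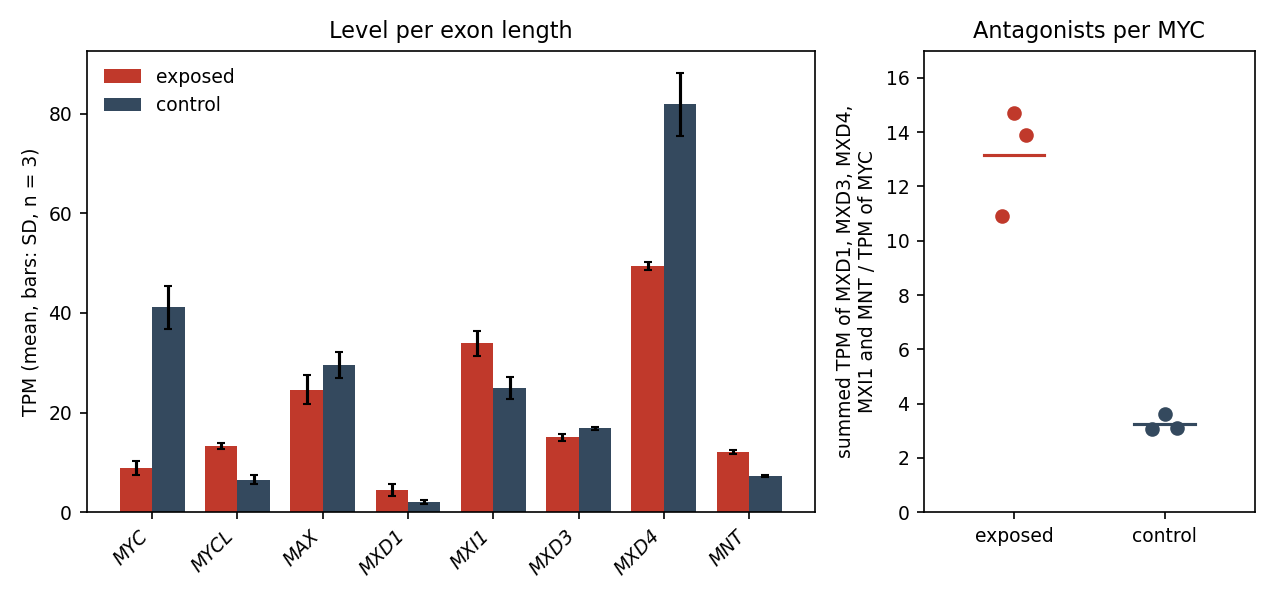
Left, level per exon length (TPM, mean with SD as bars, n = 3) of MYC, MYCL, MAX and the repressors, exposed left of control. Right, summed TPM of MXD1, MXD3, MXD4, MXI1 and MNT divided by the TPM of MYC in each library, with the mean as a line, at 10.9 to 14.7 in exposed cells and 3.05 to 3.62 in controls.

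Promoter windows from RefSeq (build GRCh38.p14, 250 bases before to 50 after each RefSeq start) were found for 9 of the 10 genes, not for MYC. They were searched for the E-box CACGTG, which reads alike on both strands. A window of MXD4, MNT and MLX held it, or 3 of 9 genes (33.3%), against 2396 of 27305 genes with such a window (8.77%). No window of MXD1 or MXI1, which also rose, held it, nor did any of MAX, MXD3, MLXIP or MGA, which did not pass. The windows of MXD4, MNT and MLX are shown because the 3 genes changed and the E-box is the element that MAX and MLX dimers read. Each runs 5′ to 3′ on the gene's strand, with the E-box in capitals. It starts at -238 in MXD4, -193 in MNT and -50 in MLX relative to the RefSeq start of the window. Those RefSeq starts differ from the 5′ ends of the gene coordinates given above, so the offsets do not apply to those coordinates. MXD4, which fell, is at chr4:2262060-2262359 (minus strand), MNT, which rose, at chr17:2401011-2401310 (minus strand), and MLX, which rose, at chr17:42566850-42567149 (plus strand). The motif thus stood at genes that moved in either direction. A match is a run of letters and not evidence of binding.
MXD4: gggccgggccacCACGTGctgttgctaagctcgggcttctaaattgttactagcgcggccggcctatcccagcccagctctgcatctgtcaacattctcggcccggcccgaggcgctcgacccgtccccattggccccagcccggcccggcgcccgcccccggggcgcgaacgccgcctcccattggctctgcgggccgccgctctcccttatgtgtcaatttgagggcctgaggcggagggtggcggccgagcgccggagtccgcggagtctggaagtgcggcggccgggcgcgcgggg
MNT: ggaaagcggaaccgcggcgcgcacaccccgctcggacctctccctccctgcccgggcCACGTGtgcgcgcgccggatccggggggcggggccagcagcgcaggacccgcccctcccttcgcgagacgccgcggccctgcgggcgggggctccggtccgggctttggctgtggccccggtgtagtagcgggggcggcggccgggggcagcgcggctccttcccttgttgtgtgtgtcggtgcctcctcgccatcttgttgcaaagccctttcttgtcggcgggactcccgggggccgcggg
MLX: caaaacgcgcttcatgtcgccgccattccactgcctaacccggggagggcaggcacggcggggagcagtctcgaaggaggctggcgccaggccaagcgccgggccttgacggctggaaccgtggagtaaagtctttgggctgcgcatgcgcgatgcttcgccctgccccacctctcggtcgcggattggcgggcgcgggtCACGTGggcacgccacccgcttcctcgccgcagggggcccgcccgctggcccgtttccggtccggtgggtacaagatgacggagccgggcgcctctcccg

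Genes commonly listed as induced by MYC were lower more often than higher. Of 85 tested genes on 2 such lists, 41 fell (48.2%, against 22.1% of all tested genes) and 11 rose (12.9%, against 21.8%), with a median log2 fold change of -0.14 beside -0.02 for all genes. The first list, rich in nucleolar and replication genes, had 24 of 55 lower (43.6%) and 7 higher (12.7%). Its smallest p-values belonged to UNG, a uracil-DNA glycosylase, at -0.92 ± 0.08, MCM4, a subunit of the replicative helicase, at -0.79 ± 0.08, and NOP56, a core protein of box C/D snoRNPs, at -0.78 ± 0.08 (log2 ± SE). The exception among them was SLC29A2, a nucleoside transporter, at 0.82 ± 0.07. Over the alternatives the number of this list that rose ran from 4, without control replicate 1, to 9, without control replicate 2 and with DESeq2.

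The second list, of classical targets, had 17 of 30 lower (56.7%, against 22.1% of all tested genes) and 4 higher (13.3%, against 21.8%). TFRC, the transferrin receptor, had 369 ± 36.7 CPM in exposed cells and 1162 ± 116 CPM in controls (SD, n = 3 each), and NCL, the nucleolar protein nucleolin, 205 ± 8.90 and 307 ± 27.0 CPM. The amino acid transporter gene SLC7A5, at 6852 ± 328 CPM in exposed cells and 3017 ± 213 CPM in controls, and SHMT2, the mitochondrial serine hydroxymethyltransferase, at 712 ± 42.6 and 462 ± 50.4 CPM, were among the 4 that rose. The textbook targets ODC1, of polyamine synthesis, and CAD, of pyrimidine synthesis, stood at 0.15 ± 0.09 and -0.06 ± 0.08 on the log2 scale (SE) and did not pass (adjusted p = 0.17 and 0.60). ODC1 passed as higher without exposed replicate 3 (adjusted p = 0.042) and without control replicate 2 (0.047), in a range of 0.042 to 0.53.

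Proliferation markers moved with these lists: 8 of 10 fell (80.0%, against 22.1% of all tested genes) and none rose, with a median of -0.51, and their summed level was 918 to 939 CPM in exposed libraries and 1284 to 1339 CPM in controls. MKI67 had 86.5 ± 3.52 CPM in exposed cells and 156 ± 16.2 CPM in controls (SD, n = 3 each), and PCNA, CCNB1 and BIRC5 were at -0.69, -0.59 and -0.55 on the log2 scale. Their part in the fall of MYC-induced genes was not tested, nor was that of the lower ESR1 level in the fall of MYC.

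Of 11 tested genes that MYC is known to repress, 6 rose (54.5%, against 21.8% of all tested genes), 1 fell (9.09%, against 22.1%) and 4 did not pass, with a median of 0.39. The cyclin-dependent kinase inhibitor genes CDKN1B and CDKN2B rose, with 49.6 ± 3.51 and 6.17 ± 0.965 CPM in exposed cells and 24.7 ± 0.656 and 3.26 ± 0.529 CPM in controls (SD, n = 3 each). GADD45A and DDIT3, also targets of stress pathways, were at 2.08 ± 0.11 and 3.78 ± 0.20 (log2 ± SE). CDKN1A, the p53-responsive kinase inhibitor, had 105 ± 5.27 CPM in exposed cells and 94.3 ± 8.68 CPM in controls and did not pass (adjusted p = 0.11), but passed as higher without control replicate 2 (0.0078, in a range of 0.0078 to 0.38). NDRG2 was the gene that fell, and without exposed replicate 2 the list had 2 lower.

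Of 13 tested targets of the MLX branch 5 rose (38.5%, against 21.8% of all tested genes) and 2 fell (15.4%, against 22.1%), with a median of 0.09. TXNIP, the thioredoxin-binding protein most closely tied to MondoA, had 273 ± 34.1 CPM in exposed cells and 192 ± 17.9 CPM in controls (SD, n = 3 each), and its relative ARRDC4 had 18.6 ± 1.04 and 12.5 ± 1.62 CPM. Both rose, by 0.51 ± 0.08 and 0.57 ± 0.11 on the log2 scale (SE, adjusted p = 1.1e-05 and 1.4e-04). TKT, a transketolase also driven by NRF2, and SCD, the stearoyl-CoA desaturase, were at 1.20 ± 0.09 and 0.40 ± 0.09. The genes that fell were PFKFB3, a regulator of glycolysis, and GPD1, and the number that fell was 0 without exposed replicate 1 and 1 without exposed replicate 2, control replicate 1 or control replicate 2, with the replicate block, with no filter on low counts and with DESeq2. Of these targets only ARRDC4 and TXNIP were searched for CACGTG. No match was found in the 2 windows of TXNIP. The ARRDC4 window, at chr15:97960453-97960752 (plus strand), held it and is shown with the E-box in capitals, starting at -210 relative to its RefSeq start.
ARRDC4: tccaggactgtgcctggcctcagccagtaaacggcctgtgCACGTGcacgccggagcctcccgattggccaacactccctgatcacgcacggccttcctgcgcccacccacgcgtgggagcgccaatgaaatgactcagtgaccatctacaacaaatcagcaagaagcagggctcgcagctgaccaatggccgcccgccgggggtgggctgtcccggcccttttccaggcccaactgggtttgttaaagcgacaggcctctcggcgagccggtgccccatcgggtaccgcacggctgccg

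**Figure D4:**
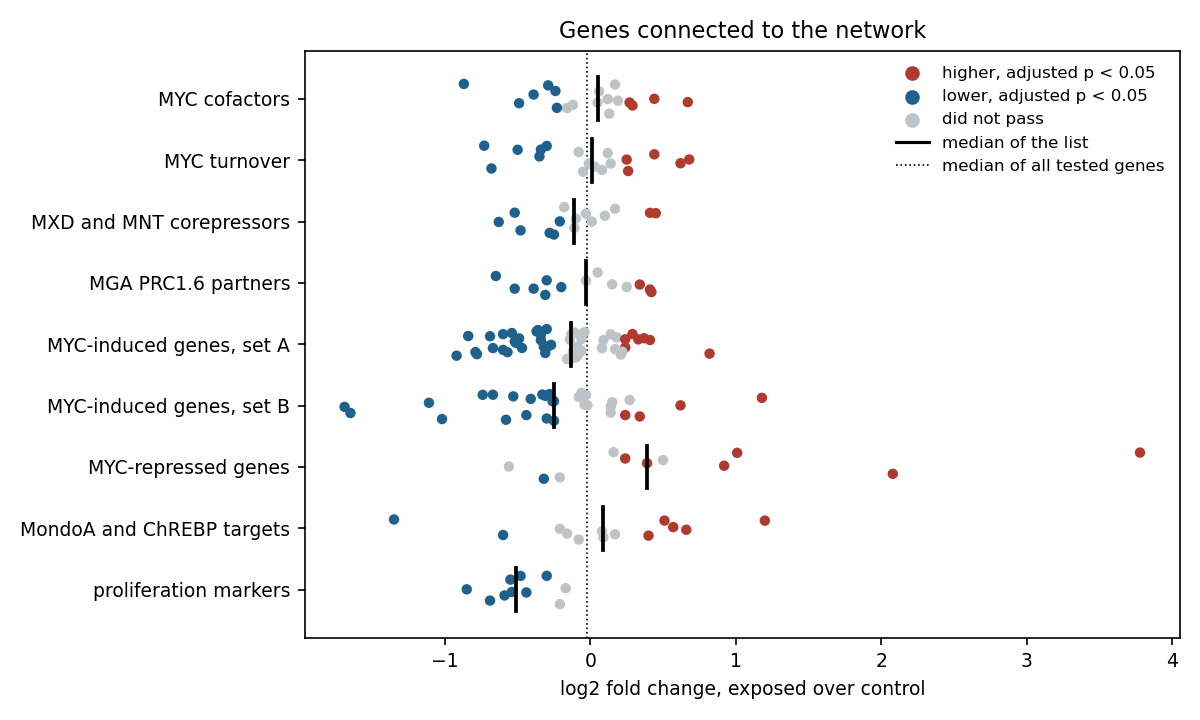
Log2 fold change, exposed over control, of every tested gene on 9 lists connected to the network, coloured by call, with the median of each list as a black bar and the median of all tested genes (-0.02) as a dotted line. The median is -0.13 and -0.25 for the MYC-induced lists, 0.39 for MYC-repressed genes and -0.51 for proliferation markers.

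Transcripts for proteins that work with the network were also counted. Of 18 MYC cofactors 4 rose (22.2%, against 21.8% of all tested genes) and 6 fell (33.3%, against 22.1%), with a median of 0.05, so the share higher was that of the background. RUVBL1, an ATPase of chromatin remodelling complexes, had 91.8 ± 5.63 CPM in exposed cells and 168 ± 11.9 CPM in controls, and ACTL6A, a shared subunit of such complexes, 77.2 ± 0.784 and 109 ± 2.88 CPM (SD, n = 3 each). The acetyltransferase gene KAT5 rose by 0.67 ± 0.09 on the log2 scale (SE). Of 18 genes of MYC protein turnover 5 rose (27.8%, against 21.8% of all tested genes) and 6 fell (33.3%, against 22.1%), with a median of 0.01. GSK3B, the kinase that marks MYC for degradation, had 145 ± 6.09 CPM in exposed cells and 90.8 ± 6.93 CPM in controls, the deubiquitinase gene USP36 92.2 ± 5.60 and 60.0 ± 0.764 CPM, and the ubiquitin ligase gene STUB1 158 ± 4.48 and 116 ± 9.28 CPM. FBXO32, an F-box gene, fell by 0.73 ± 0.08 on the log2 scale (SE). FBXW7, whose product recognises phosphorylated MYC, was at -0.08 ± 0.14 and did not pass (adjusted p = 0.68).

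Of 15 corepressor genes used by MXD proteins and MNT, 2 rose (13.3%, against 21.8% of all tested genes) and 6 fell (40.0%, against 22.1%), with a median of -0.11. HDAC1, a histone deacetylase, had 97.7 ± 2.04 CPM in exposed cells and 141 ± 3.18 CPM in controls, and RBBP7, a histone chaperone of deacetylase complexes, 291 ± 2.47 and 449 ± 12.8 CPM (SD, n = 3 each). ARID4A was at -0.48 ± 0.11. The scaffold genes SIN3A and SIN3B differed, SIN3B rising by 0.45 ± 0.09 and SIN3A at -0.18 ± 0.08 without passing (log2 ± SE, adjusted p = 0.068). SIN3A passed as lower without control replicate 2 (adjusted p = 0.042) and with the stricter filter on low counts (0.046), in a range of 0.042 to 0.29. Of 13 partners of MGA in its Polycomb complex 3 rose (23.1%, against 21.8% of all tested genes) and 6 fell (46.2%, against 22.1%), with a median of -0.03. HDAC1 and HDAC2 are on this list as well. WDR5 is also on the MYC cofactor list, and CBX3 on the first MYC-induced list. TFDP1, the dimer partner of E2F factors, was at -0.65 ± 0.07, WDR5 at -0.39 ± 0.07 and CBX3, a heterochromatin protein, at -0.31 ± 0.07, while PCGF6, the defining subunit, did not pass at 0.15 ± 0.16 (log2 ± SE, adjusted p = 0.49).

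Germline genes known to be silenced by that complex were mostly at or near 0, and 5 of 13 could be tested. MOV10L1, a helicase of the germline piRNA pathway, had 46, 38 and 24 counts in exposed libraries and 0, 2 and 2 counts in controls. It passed the filter on low counts through the exposed group, where it is high, and was not tested under the stricter filter, which left no gene of the list called higher. STAG3, MEIOB and SYCP3, all of meiotic chromosomes, stood at 1.49 ± 0.224, 4.41 ± 0.173 and 0.277 ± 0.0406 CPM in exposed cells and 0.996 ± 0.295, 3.51 ± 0.769 and 0.576 ± 0.242 CPM in controls (SD, n = 3 each) and did not pass. MEIOB passed as higher without control replicate 1 (adjusted p = 0.043, range 0.043 to 0.41), and SYCP3 as lower without control replicate 2 (0.048, range 0.048 to 0.36).

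The genes whose profile over the 6 libraries lay nearest to that of MYC were sought among 14195 genes of at least 1 CPM, by Euclidean distance of log2 CPM centred on the control mean. They were VTCN1, an inhibitory ligand of T cells, RIMS4, of the RIM family of synaptic proteins, and the keratin gene KRT23, each at a distance of 0.34, then INSM1, a neuroendocrine zinc finger factor, at 0.35 and SERPINA6, the corticosteroid-binding globulin, at 0.37. VTCN1 had 7.73 ± 1.01 CPM in exposed cells and 31.1 ± 4.19 CPM in controls, and SERPINA6 185 ± 16.7 and 816 ± 51.5 CPM (SD, n = 3 each). The log2 fold changes of RIMS4, KRT23 and INSM1 were -2.16, -2.31 and -2.12. The likeness is a description over 6 libraries that differ mainly by group.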

How the data were processed

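RNA of 6 T47D libraries was extracted with TRIzol, prepared with a NEBNext Ultra kit and sequenced on an Illumina instrument, per the labels' protocols. The authors deposited raw read counts per gene. Their genome build was GRCh38, per the submitters' processing notes, and no aligner, counter or strand setting is stated in the texts at hand. All 58735 gene IDs, coordinates and lengths equalled those of GENCODE 29, the length being the exon union.

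From the deposited counts, edgeR 4.0.16 (R 4.3.3; filterByExpr minimum count 10 and total 15, TMM, robust quasi-likelihood fit, Benjamini-Hochberg adjustment over 17337 genes) compared exposed with control, 3 libraries each. The SE is the log2 fold change divided by the square root of F. CPM uses TMM-scaled library sizes, and TPM uses counts per exon length. Libraries of a group differed beyond counting noise (chi-square 7.11 to 14.9 per degree of freedom), and p-values measure the spread between these samples. The fit was tested on simulated data. Members and lists, assembled from general knowledge, were chosen with earlier results of these data known. Named were all network genes, a few fixed genes, and the 4 genes with the lowest adjusted p on each list. PFKFB3, GPD1 and NDRG2 were named after their values were seen, as were some markers. Some genes that the rule takes are left out of the text. Alternatives were other size factors, filters and gene sets, DESeq2 1.42.0, limma-voom 3.58.1, a replicate block and leaving out each library.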

Additional observations from a re-analysis of the deposited data

How the results depend on the processing

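The counts of the 10 network genes were 4 higher in all 13 alternatives run and 2 lower in 9 of them. The lower count was 3 in the rest, where MAX joined: the stricter filter (adjusted p = 0.040), protein-coding genes only (0.045), and without exposed replicate 2 or control replicate 1. Genes called over the table numbered 6262 to 7681, against 7610. MYC stayed at -2.31 to -2.03 on the log2 scale and passed throughout, as did MXD1, MXD4, MXI1, MNT, MLX, MYCL and MLXIPL. With the replicate block 6779 genes were called, and 4 network genes were higher and 2 lower. Deviations of same-numbered libraries had r of -0.144, -0.117 and 0.018 across genes, and those of differently numbered libraries ran from -0.113 to 0.234. With 3 libraries per group, these values cannot settle whether same-numbered samples were paired. Repressor transcripts per MYC transcript, exposed over control, ran from 3.81 to 4.4. The ratio with the longest transcript as length, chosen after seeing the data, was 3.92. Among differences that did not pass, MLXIP rounded to 0 without exposed replicate 3, and the sign changed in MGA (-0.09 without exposed replicate 2, 0.24 without exposed replicate 1), CAD (0.04 without exposed replicate 3, down to -0.11 without exposed replicate 2) and COL3A1 (0.07 without exposed replicate 1, 0.02 without control replicate 2 and -0.13 without exposed replicate 2). MYCN and most germline genes had too few counts for a test.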
